A study of Mus musculus with 15 samples.

Results

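The genes described here are 8 transcription factors of the interneuron lineage that arises in the medial ganglionic eminence (MGE), a ventral part of the embryonic forebrain: Lhx6, Sox6, Satb1, Dlx1, Dlx2, Dlx5, Npas1 and Npas3. Every probe set annotated to 1 of these symbols alone was taken, which gave 19 of the 34945 single-gene probe sets and 8 of the 18193 genes on the array. No member sat on a probe set shared between genes. Lhx6 had 2 probe sets, Sox6 4, Satb1 5, Npas3 4, and the others 1 each.

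The cells were GFP-positive neurons of the transgenic mouse line G42, profiled on Affymetrix 430 2.0 arrays. In this line regulatory sequence of Gad1 drives GFP in a subset of cortical interneurons, mostly of the parvalbumin class. The 5 groups were cells of primary somatosensory cortex at postnatal day (P) 7, 10, 15, 25 and 40, with 3 animals at each age, 1 array per animal, and a span up to P45 in the oldest group. All groups carried the same transgene, and no group was treated. Each array held RNA of 23 to 85 fluorescent cells picked by hand after protease treatment and dissociation of slices, which was amplified in 2 rounds before hybridization.

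Cortical parvalbumin and somatostatin interneurons come from the MGE, where Nkx2-1 starts the programme and the LIM homeodomain factor Lhx6 carries it on after the cells leave. Sox6, an SRY-box factor, and Satb1, a chromatin-organizing homeodomain protein, act later in the same cells, in their positioning and maturation. The Dlx homeodomain factors lie in gene pairs, Dlx1 with Dlx2 and Dlx5 with Dlx6, and act more broadly in GABAergic neurons of the ventral forebrain. Npas1 and Npas3 are basic helix-loop-helix PAS proteins that bind DNA with a partner of the ARNT family.

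The cells carried the markers of their label. Pvalb averaged 14.28 ± 0.20 at P40 and 3.62 ± 0.72 at P7 (log2, SD, n = 3 each), so the defining marker was not yet above background at P7. Gad1 averaged 14.98 ± 0.14 at P40 and 13.88 ± 0.46 at P7, and Slc17a7 of excitatory neurons read at most 2.62 on any array. Of the other excitatory neuron markers, Slc17a6, Neurod1, Neurod2, Neurod6, Tbr1 and Emx1 read at most 4.85. Camk2a, Nrgn and Fezf2 reached 8.63, 8.93 and 7.23 on their highest arrays. Sst, the peptide of the other main MGE class, was high on 14 arrays and read 1.72 on P40 replicate 1, against 11.04 and 12.24 on the other P40 arrays and 12.92, 10.90 and 10.76 at P7. Beta-actin 3′ minus 5′ differences, which are larger where the amplified RNA is shorter, were 3.88, 3.40 and 4.50 at P40 and 4.64, 6.41 and 6.26 at P7. Hybridization controls had a median of 2.50 and 2.45 on P15 replicates 2 and 3 and of at least 9.28 on all other arrays.

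Values are the deposited log2 values, in which a step of 1 is a 2-fold difference. A gene was read from its brightest probe set and tested where that exceeded 5 on at least 3 arrays, a threshold that all 8 genes passed. Differences come from limma fitted over all 9663 genes that passed, and a gene was called at an adjusted p under 0.05. Each array pools many cells, so fewer cells expressing a gene and less RNA per cell cannot be told apart.

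5 of the 8 factors were lower at P40 than at P7 and none was higher. Without P40 replicate 1, 3 were lower, as Sox6 and Dlx5 were not called, and 5 of 29 other settings made Satb1 a higher call. The 5 were Npas3, Dlx2, Dlx5, Sox6 and Lhx6. Satb1, Dlx1 and Npas1 did not pass the test, though Satb1 was higher at an unadjusted p of 0.044. Of all genes tested, 17.6% were called lower, 27.5% higher and 45.2% either way. The median difference of the 8 factors was -1.09 on the log2 scale, and that of all genes tested was 0.18. Relative to that median, the 5 called factors lay between -1.01 and -3.61 and Satb1 at 0.24. Of all genes called, 61.0% were higher, a share that was 50.5% after quantile normalization and 49.4% with equal array medians. For 6 of the 8, every P40 array lay below every P7 array, which held for 22.6% of all genes tested.

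The moderated F test over the 5 ages called 6 of the 8, against 47.2% of all genes tested. These were Npas3 (adjusted p = 4.0e-07), Dlx2 (3.7e-05), Lhx6 (0.0034), Dlx5 (0.0060), Satb1 (0.027) and Sox6 (0.048). The calls of Sox6 and Satb1 were lost under 18 and 8 of 28 other settings and the other 4 under none. The adjusted p was 0.12 for Dlx1 and 0.43 for Npas1.

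**Figure D1:**
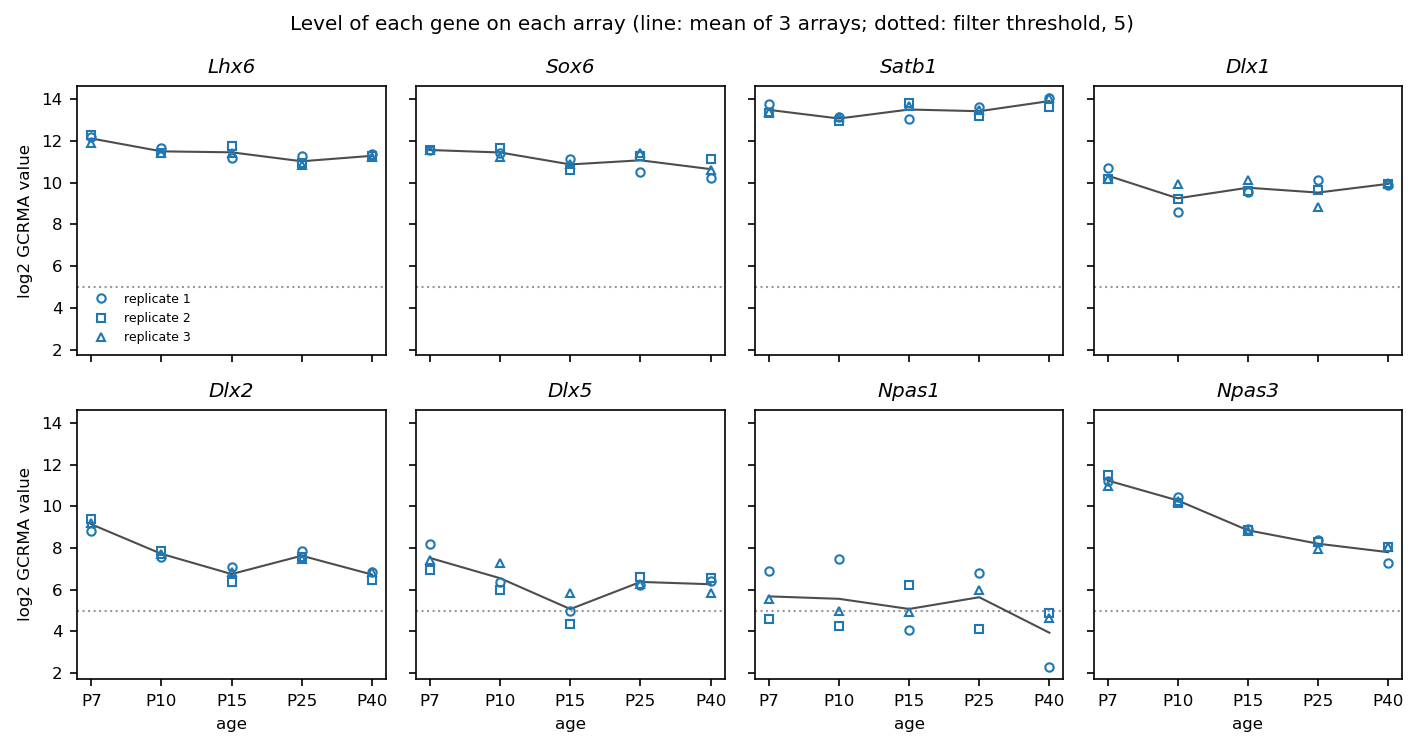
The log2 GCRMA value of each of the 8 genes on every array (points, shaped by replicate number), against age, with a line through the mean of the 3 arrays and a dotted line at the filter threshold of 5. The mean of Npas3 is lower at each later age, that of Dlx2 is lowest at P15 and P40, Lhx6, Sox6 and Satb1 stay above 10 on all arrays, and Npas1 straddles the threshold.

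Lhx6 (chr2:36081950-36105992, GRCm38.p6), the factor that keeps MGE identity after Nkx2-1 is lost, was above the threshold on every array. It read 12.17, 12.30 and 11.88 at P7, 11.68, 11.40 and 11.41 at P10, and 11.19, 11.76 and 11.40 at P15. It read 11.28, 10.95 and 10.83 at P25 and 11.39, 11.26 and 11.20 at P40. The 3 P7 arrays stood above all others, and the 4 later ages overlapped in their order, from P10 through P15 and P40 to P25. Lhx6 fell to 11.28 ± 0.09 at P40, against 12.11 ± 0.21 at P7 (SD, n = 3 each), a 1.78-fold difference (log2 -0.83, SE 0.19, adjusted p = 0.0027). No step between neighbouring ages passed, and the largest was P10 against P7 at -0.62 (SE 0.19, adjusted p = 0.099). The second Lhx6 probe set, 1422262_a_at, was near 2 at every age.

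Nkx2-1, which lies above Lhx6 in the embryo, read at most 1.94 on any array, and Lhx8, a LIM homeodomain relative of the MGE, at most 3.31. Both were thus below the threshold in these postnatal cells at all 5 ages.

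Sox6 (chr7:115470872-116040776), which acts after Lhx6 in the lineage, read 10.20, 11.15 and 10.59 at P40 and 11.54, 11.57 and 11.57 at P7. The P7 arrays were close together and above all P40 arrays, while replicate 1 at P40 was the lowest of the 15. Its mean was 11.56 ± 0.02 at P7 and 11.44 ± 0.22 at P10, then 10.87 ± 0.28 in P15 arrays, 11.07 ± 0.51 in P25 arrays and 10.64 ± 0.48 at P40 (SD, n = 3 each), and every pair of neighbours in the order of levels overlapped. Sox6 was 1.89-fold lower at P40 than at P7 (log2 -0.92, SE 0.27, adjusted p = 0.013). Without P40 replicate 1, the array on which Sst was at background, the difference was -0.69 and was not called (adjusted p = 0.074). With the beta-actin difference as a covariate it was -0.68 (adjusted p = 0.17).

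The Sox6 probe sets agreed in sign and not in size. The value above comes from 1447655_x_at, whose suffix marks probes that can match other sequences. Probe set 1434918_at averaged 5.11 ± 1.10 at P40 and 6.91 ± 0.88 at P7 and was called (log2 -1.81, SE 0.61, adjusted p = 0.028 over all probe sets). Probe set 1427677_a_at averaged 9.62 ± 0.07 at P40 and 10.13 ± 0.46 at P7 and was not called (log2 -0.51, SE 0.37, adjusted p = 0.29). Here too P40 replicate 1 was the lowest P40 array of both, at 4.05 and 9.53.

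Satb1 (chr17:51736187-51833290), a regulator of interneuron maturation and survival, was above the threshold on every array. It read 14.04, 13.64 and 14.04 at P40 and 13.75, 13.33 and 13.38 at P7, so 2 P40 arrays lay above all P7 arrays and the groups overlapped. The difference was 0.42 (SE 0.19, adjusted p = 0.086). Its lowest age was P10, at 13.07 ± 0.12, and its highest P40, at 13.91 ± 0.23 (SD, n = 3 each). P10 and P25 were the only neighbours in its order of levels that did not overlap. Leaving out P7 replicate 1, P15 replicate 1 or P40 replicate 2 made the rise at P40 a call, with adjusted p of 0.041, 0.038 and 0.048. With the beta-actin difference as a covariate the rise was 0.01 (adjusted p = 0.97).

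Its 4 probe sets above the threshold did not share a direction between P40 and P7, and none was called. Besides the 0.42 of 1416007_at, they gave -0.58 for 1416008_at (SE 0.23, adjusted p = 0.057), 0.14 for 1436182_at (SE 0.31) and 0.85 for 1439449_at (SE 0.70). A direction for Satb1 therefore depended on the probe set read.

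**Figure D2:**
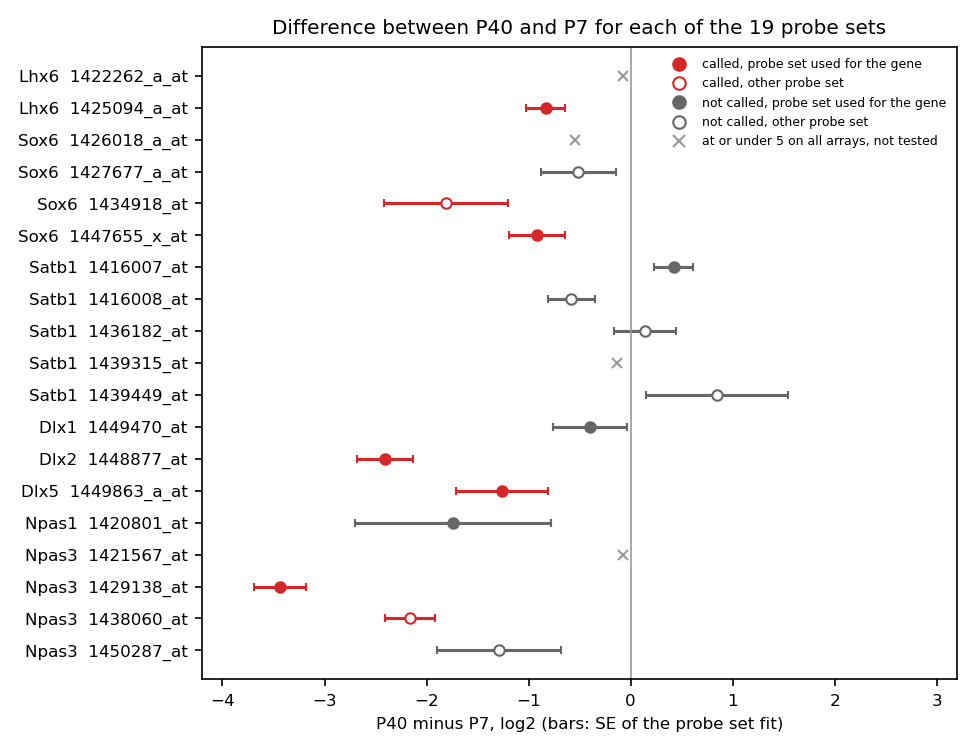
The P40 minus P7 difference (log2) of each of the 19 probe sets, with bars of 1 SE for the 15 that were tested, filled where the probe set stands for its gene and red where it was called. 7 probe sets were called, all lower at P40, and the 4 tested probe sets of Satb1 lie on both sides of 0.

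Over all probe sets tested, 7 of the members' 15 that passed the threshold were called for P40 against P7, and all 7 were lower. Among all single-gene probe sets tested, 41.9% were called either way and 15.9% lower. The 4 that did not pass, 1 each of Lhx6, Sox6, Satb1 and Npas3, were at or under 5 on all arrays.

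Dlx1 (chr2:71528113-71533981) and Dlx2 (chr2:71543408-71546754) are neighbours that share regulatory sequence in the embryonic forebrain, where they promote the GABAergic fate and migration. Dlx2 was called lower at P40 and Dlx1 was not, and the values of both follow. Their promoter windows are shown because only Dlx2 of the pair was called at P40 against P7, and that of Npas3 because its brightest probe set had the largest difference. Each runs from 250 bases before to 50 after a transcript start listed by RefSeq (GRCm38.p6), which for Dlx1 and Npas3 lies inside the span of the gene. It is in lower case, with capitals for the letters ACGTG on either strand, the core bound by PAS proteins with ARNT.
Dlx1: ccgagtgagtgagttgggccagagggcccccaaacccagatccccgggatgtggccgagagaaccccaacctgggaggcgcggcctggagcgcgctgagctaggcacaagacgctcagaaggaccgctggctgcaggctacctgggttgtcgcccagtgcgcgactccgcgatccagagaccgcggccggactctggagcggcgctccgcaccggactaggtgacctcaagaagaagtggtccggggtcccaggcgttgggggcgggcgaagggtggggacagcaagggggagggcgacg
Dlx2: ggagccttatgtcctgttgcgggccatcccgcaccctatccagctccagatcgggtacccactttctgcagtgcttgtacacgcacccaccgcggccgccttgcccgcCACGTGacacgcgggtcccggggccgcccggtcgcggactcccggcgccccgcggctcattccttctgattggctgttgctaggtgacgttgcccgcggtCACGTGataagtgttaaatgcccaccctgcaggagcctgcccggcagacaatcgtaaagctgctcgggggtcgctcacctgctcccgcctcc
Npas3: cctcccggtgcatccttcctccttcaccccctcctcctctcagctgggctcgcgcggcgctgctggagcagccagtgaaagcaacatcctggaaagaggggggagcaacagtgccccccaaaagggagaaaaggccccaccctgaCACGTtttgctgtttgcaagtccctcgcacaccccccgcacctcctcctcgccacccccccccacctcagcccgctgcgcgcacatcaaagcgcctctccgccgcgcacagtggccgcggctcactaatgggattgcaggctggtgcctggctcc
The windows are chr2:71529195-71529494 on the plus strand for Dlx1, chr2:71546705-71547004 on the minus strand for Dlx2 and chr12:53248182-53248481 on the plus strand for Npas3.

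The Dlx2 window holds ACGTG 4 times, counted on both strands, as 2 separate palindromes CACGTG. In each palindrome the matches of the strands overlap, and it also matches the E box letters CANNTG. The Npas3 window holds it 1 time, and the Dlx1 window holds none. Of 32851 promoter windows of the same length, 19.6% hold ACGTG and 72.3% hold CANNTG. The homeodomain letters TAATTA, found in 5.29% of all windows, are in none of these 3. These matches describe the letters of the windows only.

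Dlx2 read 6.86, 6.48 and 6.85 at P40 and 8.81, 9.40 and 9.20 at P7. The groups did not overlap, and the P40 arrays were close together. Dlx2 fell to 6.73 ± 0.22 at P40, against 9.14 ± 0.30 at P7 (SD, n = 3 each), a 5.30-fold difference (log2 -2.41, SE 0.28, adjusted p = 9.3e-06).

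Most of this difference was reached early. Dlx2 averaged 7.72 ± 0.15 at P10, 6.75 ± 0.37 at P15 and 7.63 ± 0.20 at P25 (SD, n = 3 each). It was the only factor of the 8 called at P10 against P7 (log2 -1.42, SE 0.28, adjusted p = 0.010), a step in which 1.23% of all genes were called lower and 3.6% either way. It was called again at P15 against P10 (log2 -0.97, SE 0.28, adjusted p = 0.038), a call lost under 13 of 29 other settings. P25 arrays lay above all P15 arrays, a difference of 0.88 that did not pass (SE 0.28, adjusted p = 0.084), and P40 was 0.90 below P25 (SE 0.28, adjusted p = 0.17).

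Dlx1 read 9.90, 9.94 and 9.98 at P40 and 10.68, 10.16 and 10.17 at P7. The P40 arrays were all lower than the P7 arrays, by an amount that did not pass the test (log2 -0.40, SE 0.36, adjusted p = 0.39). Dlx1 spread widely at P10, from 8.59 to 9.95, and at P25, from 8.81 to 10.11. Its largest step was P10 against P7, lower as for Dlx2, at -1.09 (SE 0.36, adjusted p = 0.12), which did not pass. Within each array, Dlx2 minus Dlx1 averaged -3.21 ± 0.22 at P40 and -1.20 ± 0.59 at P7 (log2, SD, n = 3 each), with no overlap. The exact permutation test of that change of -2.01 gave p = 0.1, two-sided, the smallest that 3 against 3 allows.

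Dlx5 (chr6:6877801-6882068), which acts downstream of Dlx1 and Dlx2, ranged from 4.37 to 8.19. The P7 arrays read 8.19, 6.94 and 7.44, those of P10 6.38, 5.97 and 7.30, and those of P15 4.99, 4.37 and 5.86. Later values were 6.23, 6.63 and 6.26 for P25 and 6.42, 6.55 and 5.82 for P40. The P15 arrays included the only 2 under 5, and all neighbours in the order of levels overlapped. Dlx5 was 2.39-fold lower at P40 than at P7 (log2 -1.26, SE 0.45, adjusted p = 0.033). This call was lost without P7 replicate 1 or 3 or P40 replicate 1 or 3, where the difference was between -0.92 and -1.34. P15 against P10 was -1.48 (SE 0.45, adjusted p = 0.047), a call lost under 19 of 29 other settings, among them the replicate block (adjusted p = 0.065). P25 lay 1.30 above P15 and did not pass (SE 0.45, adjusted p = 0.11).

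**Figure D3:**
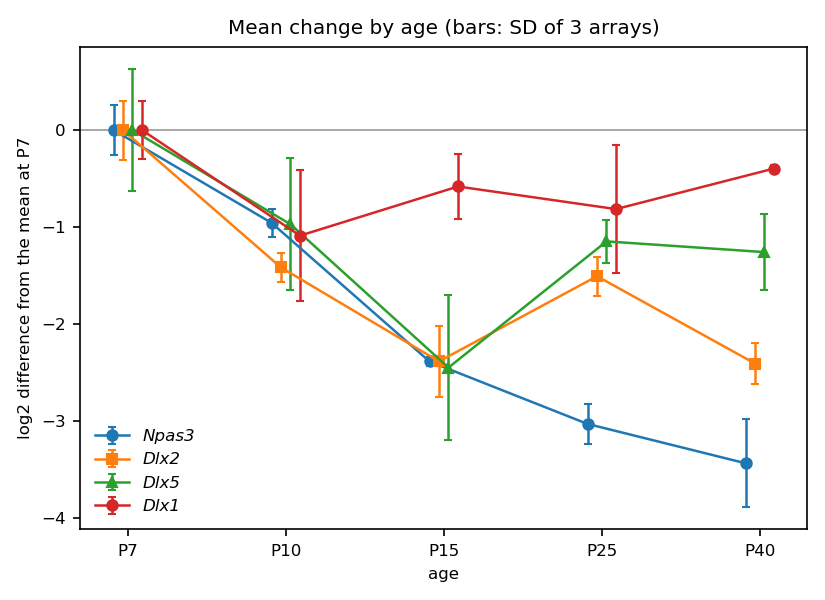
The mean log2 difference from P7 at each age for Npas3, Dlx2, Dlx5 and Dlx1, with bars of the SD over 3 arrays. Dlx2 and Dlx5 are lowest or near their lowest at P15 and higher at P25, Npas3 is lower at each later age, and Dlx1 stays within 1.09 of its P7 mean.

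Npas3 (chr12:53248026-54072173), a PAS factor expressed in interneuron progenitors and in other neural cells, had the largest difference of the 8 as read from the brightest probe sets. The P7 arrays read 11.22, 11.50 and 10.99, those of P10 10.44, 10.14 and 10.26, and those of P15 8.89, 8.87 and 8.80. Later values were 8.36, 8.28 and 7.97 for P25 and 7.28, 8.06 and 8.07 for P40. Each age lay wholly below the one before it, except that P40 overlapped P25. Npas3 fell to 7.80 ± 0.45 at P40, against 11.24 ± 0.26 at P7 (SD, n = 3 each), a 10.8-fold difference (log2 -3.44, SE 0.25, adjusted p = 1.5e-07). All 3 P40 arrays were lower than all 3 P7 arrays, and P40 replicate 1 was again the lowest.

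The steepest step for Npas3 was P15 against P10, at -1.43 (SE 0.25, adjusted p = 0.0056). The step before it was -0.96 (SE 0.25, adjusted p = 0.051), and those after it were -0.64 and -0.41 (SE 0.25 each, adjusted p = 0.17 and 0.63). A separate Npas3 probe set, 1438060_at, averaged 8.41 ± 0.18 at P40 and 10.57 ± 0.22 at P7 (log2 -2.16, SE 0.24, adjusted p = 1.1e-05). It too stepped down between P10 and P15 (log2 -1.05, SE 0.24, adjusted p = 0.021), and differed by 0.03 between P40 and P25 (adjusted p = 0.98). The third, 1450287_at, was over 5 on 5 arrays only and was not called (adjusted p = 0.10). With the mean of all 4 Npas3 probe sets, the P40 minus P7 difference was -1.74 and remained a call. P15 against P10 was then -0.47 and was not called (adjusted p = 0.13), and P10 against P7 was -0.62. That mean includes 1421567_at, which was under 5 on all arrays and averaged 2.14 at P40 and 2.22 at P7. It also includes 1450287_at, which was 0.63 higher at P15 than at P10 (SE 0.61).

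Npas1 (chr7:16455721-16476822), known from interneurons of the caudal as well as the medial eminence, was at the edge of detection. It exceeded 5 on 6 of 15 arrays and on none at P40, where it read 2.31, 4.87 and 4.64, against 6.90, 4.61 and 5.53 at P7. The groups overlapped and the spread within an age reached 1.70 (SD, n = 3, P10). The difference of -1.74 (SE 0.95, adjusted p = 0.15) did not pass and was -0.92 without P40 replicate 1. With no P40 array over 5, that difference is a fitted value and not a fold. Within each array, Npas3 minus Npas1 averaged 3.86 ± 0.97 at P40 and 5.55 ± 1.29 at P7 (log2, SD, n = 3 each). The exact permutation test of that change of -1.69 gave p = 0.2, two-sided, and the P40 side rests on Npas1 values under 5. The other 4 genes of the caudal eminence on the marker list, Prox1, Nr2f2, Sp8 and Adarb2, read at most 3.81 on any array.

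Steps between neighbouring ages were called for few of the 8. Beside Dlx2 at P10 against P7, they were Dlx2, Dlx5 and Npas3 at P15 against P10, all lower, where 2.79% of all genes were called lower and 11.4% either way. None passed at P25 against P15 or at P40 against P25, where 4.86% and 0.673% of all genes were called. Lhx6, Dlx2, Dlx5 and Npas3 had an unadjusted p under 0.05 at P25 against P15, 4 of 8 against 19% of all genes. Dlx2 (log2 0.88) and Dlx5 (1.30) were higher at P25, and Lhx6 (-0.43) and Npas3 (-0.64) were lower. Satb1 and Dlx2 had an unadjusted p under 0.05 at P40 against P25, 2 of 8 against 11.5%. There Satb1 was higher at P40 (0.49) and Dlx2 lower (-0.90).

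The 3 calls at P15 against P10 sat beside uneven cell numbers and 2 arrays that stood apart. The P15 arrays held 34, 23 and 45 cells, against 71, 72 and 47 at P10. With cells picked as a covariate, the differences were -1.36 for Npas3, -0.85 for Dlx2 and -1.73 for Dlx5, and none of the 3 was called (adjusted p = 0.15, 0.43 and 0.32). Of all 9663 genes tested, 33 were called at this step with that covariate and 1098 without it. Without P15 replicates 2 and 3, whose hybridization controls were at background, the differences were -1.39 for Npas3, -0.64 for Dlx2 and -1.56 for Dlx5. That fit has 1 P15 array, which is assumed to vary like those of the other ages.

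Markers of other cell types were measured on the same arrays. Those of oligodendrocyte precursors, which also express Sox6, summed to between 61 and 99 on the linear scale at P40 and between 64 and 71 at P7, with 0 of 7 markers over 5 on all arrays of any age. Pdgfra was at most 4.42 on any array, and Sox10, which oligodendrocytes share, exceeded 5 on 3 arrays, at 6.25 on P10 replicate 1, 6.21 on P15 replicate 1 and 5.88 on P40 replicate 1. Astrocyte markers summed to between 93 and 375 at P40 and between 117 and 257 at P7. The highest astrocyte sums were at P10 and P25, where Gja1 read 8.55 and 9.02 on P10 replicates 2 and 3 and 9.65 on P25 replicate 2, and where Npas3 read 10.14, 10.26 and 8.28, against 10.44 on the other P10 array and 8.36 and 7.97 on the other P25 arrays. Excitatory neuron markers summed to between 247 and 290 at P40, between 159 and 182 at P7 and between 514 and 798 at P10. Camk2a was over 5 on all arrays from P10 on, and Nrgn on all arrays at P10. Camk2a was called higher at P40 than at P7 (log2 2.08, SE 0.33, adjusted p = 0.00014), and Nrgn did not pass (adjusted p = 0.26). Oligodendrocyte markers summed to between 570 and 1013 at P40 and between 1765 and 2213 at P7. These sums were mostly Cnp, which averaged 9.10 ± 0.54 at P40 and 10.75 ± 0.23 at P7 (adjusted p = 0.0025). Mbp averaged 6.52 ± 1.37 and 6.71 ± 0.53 (adjusted p = 0.83), and Mog, Mag, Cldn11, Ermn and Opalin read at most 4.12 on any array. All 11 tested parvalbumin interneuron markers were called higher at P40, where 27.5% of all genes were called higher. The 12th on the list, Erbb4, did not pass the threshold and averaged 3.79 ± 0.18 at P40 and 4.68 ± 0.56 at P7. The sums over all 12 were 150170 to 163588 at P40 and 43953 to 54664 at P7. Of 8 tested markers of other interneuron classes, 2 were called higher at P40, 2 lower and 4 did not pass, with sums of 11220 to 25210 at P40 and 10305 to 21962 at P7. Chodl, a marker of a somatostatin subclass, averaged 3.93 ± 0.24 at P40 and 9.19 ± 0.90 at P7, and Reln 9.35 ± 1.44 at P40 and 12.04 ± 0.41 at P7 (adjusted p = 2.7e-07 and 0.00078). Cck averaged 11.96 ± 0.42 at P40 and 8.41 ± 0.62 at P7, and Nos1 5.81 ± 0.71 at P40 and 4.11 ± 0.01 at P7 (adjusted p = 8.2e-07 and 0.0042). The part of these differences in the results was not tested.

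A list of other interneuron transcription factors changed in both directions. Of 32 written, 26 were on the array and 14 were tested. 3 were called higher at P40, 6 lower and 5 did not pass, with a median difference of -0.68, against 0.18 for all genes, of which 27.5% were called higher and 17.6% lower. The lower ones with the smallest adjusted p were Bcl11b (10.48 ± 0.25 at P40 and 12.85 ± 0.29 at P7, adjusted p = 8.0e-07), Nr2f1 (10.72 ± 0.30 and 12.26 ± 0.56, adjusted p = 0.00057) and Bcl11a (11.81 ± 0.17 and 12.74 ± 0.40, adjusted p = 0.0035), all n = 3. Bcl11a and Bcl11b are zinc finger proteins of neuronal differentiation and Nr2f1 is an orphan nuclear receptor. Higher were Pbx3, a TALE homeodomain protein, at 8.42 ± 0.47 against 3.22 ± 0.09, and the nuclear receptors Esrrg, at 11.55 ± 0.38 against 9.54 ± 0.17, and Rora, at 9.85 ± 0.04 against 7.91 ± 1.15 (adjusted p = 5.7e-06, 0.00046 and 0.0014).

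**Figure D4:**
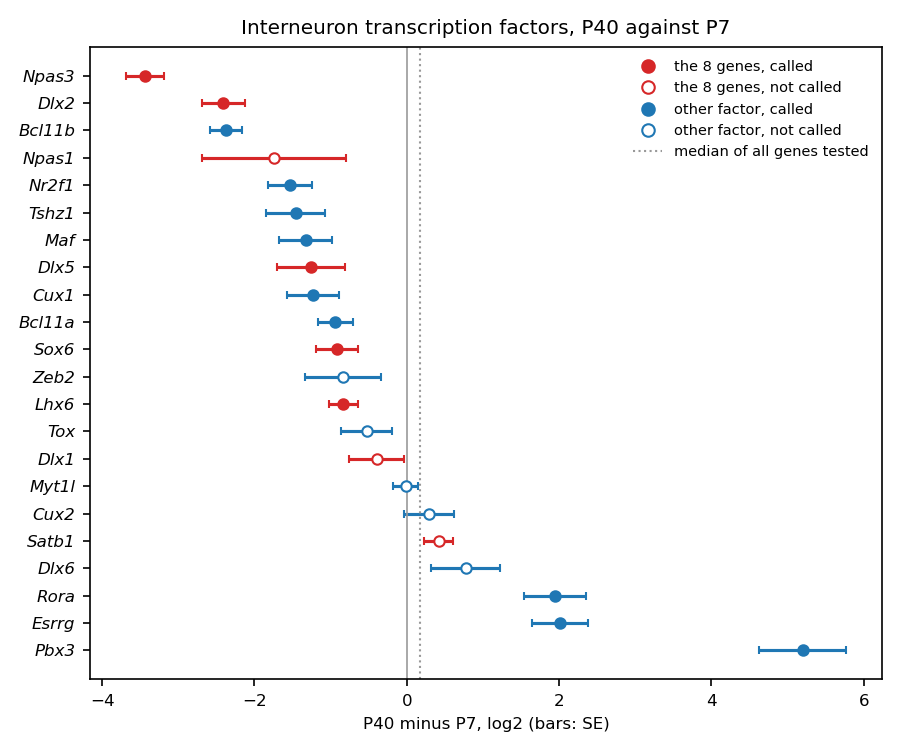
The P40 minus P7 difference (log2, bars of 1 SE) of the 8 factors (red) and the 14 other interneuron transcription factors tested (blue), filled where called, with a dotted line at the median of all genes tested, 0.18. Npas3 and Dlx2 are the lowest, at -3.44 and -2.41, with Bcl11b beside them at -2.37, and Pbx3, Esrrg and Rora lie to the right.

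Most relatives of the 8 by family did not pass the threshold. Of 20 written, 19 were on the array and 3 were tested. Sox5, the nearest relative of Sox6, rose to 8.42 ± 0.09 at P40, against 6.11 ± 1.22 at P7 (log2 2.31, SE 0.49, adjusted p = 0.0015). Npas4, an activity-regulated PAS factor, fell to 2.49 ± 0.14 at P40, against 7.29 ± 0.85 at P7 (adjusted p = 0.00046). Dlx6, the partner of Dlx5, averaged 6.24 ± 0.66 at P40 and 5.47 ± 0.65 at P7 and did not pass (log2 0.78, SE 0.45, adjusted p = 0.18).

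Among 22 cofactors, 20 were tested. 6 were called higher, 6 lower and 8 did not pass, with a median of -0.10, where 27.5% of all genes were called higher and 17.6% lower. The LIM-only protein Lmo2 rose to 9.26 ± 0.49 at P40, against 3.82 ± 0.79 at P7 (adjusted p = 1.6e-07). The LIM domain binding protein Ldb2, a partner of Lhx proteins, fell to 4.32 ± 0.81 at P40, against 7.49 ± 1.16 at P7 (adjusted p = 0.00077). Of the corepressors, Ctbp2 rose (log2 3.18, SE 0.41, adjusted p = 2.5e-05), while Tle3 (log2 -3.43, SE 0.44, adjusted p = 2.6e-05) and Tle1 (log2 -1.21, SE 0.34, adjusted p = 0.0095) fell. Ssbp2, which stabilizes complexes of LIM domain binding proteins, rose by 1.67 (SE 0.23, adjusted p = 4.3e-05). The PAS partners did not pass, with Arnt2 at 13.00 ± 0.16 at P40 and 12.98 ± 0.54 at P7 and Arnt at 5.07 ± 0.13 and 5.85 ± 0.56.

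Of 29 genes known to lie downstream of these factors, 25 were tested. 11 were called higher, 7 lower and 7 did not pass, with a median of 0.66, where 27.5% of all genes were called higher and 17.6% lower. The list shares its GABA and Kv3 channel genes with the parvalbumin markers. The fast potassium channel subunit Kcnc1 averaged 14.59 ± 0.14 at P40 and 10.50 ± 0.43 at P7, the histamine receptor Hrh3 8.96 ± 0.17 and 3.18 ± 0.32, and the GABA-synthesizing enzyme Gad2 12.67 ± 0.07 and 10.02 ± 0.44, all higher (adjusted p = 1.5e-09, 1.3e-07 and 2.8e-06). Of those called lower, these had the smallest adjusted p. The growth cone protein Gap43 averaged 6.75 ± 1.26 at P40 and 13.09 ± 0.39 at P7, the chemokine receptor Ackr3 3.16 ± 0.02 and 6.49 ± 0.09, and the semaphorin receptor Nrp1 3.65 ± 0.42 and 7.44 ± 0.50 (adjusted p = 1.3e-05, 8.4e-05 and 0.00021).

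Across the 15 arrays, the genes whose levels ran most like each factor, among the 9663 tested, were found by Pearson's r as a description, since the arrays share age and amplification. For Npas3 they were the metabolic enzyme Idh1 (r = 0.988), Dda1 (0.983) and the ribosomal protein Rps26 (0.979). For Dlx2 they were Aacs (0.937), Ewsr1 (0.930) and Cdk19 (0.925), and for Lhx6 Rps3 (0.937), Phactr3 (0.934) and Zcchc14 (0.921). Sox6 ran closest to Rbm14 (0.905), Dlx1 to Hnrnpdl (0.904), Dlx5 to Wdr43 (0.885), Satb1 to Rpn2 (0.865) and Npas1 to Lrrtm1 (0.832). None of the 8 was among the 3 closest genes of another.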

How the data were processed

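The series holds 1 array for each of 15 mice, grouped by the age in the labels. The deposited values are log2 expression values, 1 per probe set and array, made with GCRMA per the submitters' processing notes, which corrects background, normalizes between arrays and summarizes probes. Its version is not given in the sources used here. Linear folds are restricted to genes averaging over 5 at both ages, and a log2 difference against lower values is a fitted value.

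The array has 45101 probe sets. Annotation gave 34945 of them 1 gene and 932 several, left 9160 without, and 64 were controls. The brightest single-gene probe set, by its mean of 15 arrays, stood for each gene, and a gene was tested if that value exceeded 5 on at least 3 arrays, which kept 9663 of 18193 genes. A second fit took all 15381 single-gene probe sets that passed the same filter. limma 3.58.1 in R 4.3.3 fitted a mean for each of 5 ages, with a trend in the prior variance, 10 residual and a median of 4.85 prior degrees of freedom. All p-values are two-sided and adjusted by Benjamini and Hochberg's method within a contrast, and 0.05 was the threshold for a call. The SE given is the one limma moderates. With arrays in place of reads, precision is set by how many there are.

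The 8 genes and all lists were chosen with earlier results of these data known. Named besides them were, of each list, the 3 called genes per direction that had the lowest adjusted p, the 3 genes most like each factor by r, and Pvalb, Gad1 and Slc17a7. Any other gene was named after its values were seen. Promoters and gene positions are those of RefSeq on GRCm38.p6, matched by symbol. Figures were drawn with matplotlib 3.10.9 in Python 3.11.15.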

Additional observations from a re-analysis of the deposited data

How the results depend on the processing

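The counts of called factors and each factor's differences were recomputed under 29 other settings, or 28 for the F test and for Npas1, of which leaving out P15 replicates 2 and 3 was chosen after seeing the data. The gene lists, markers and non-coding transcripts were not recomputed. The P40 minus P7 calls of Lhx6 (-1.05 to -0.45), Dlx2 (-2.62 to -2.08) and Npas3 (-3.65 to -1.74) held under all 29. No direction between P40 and P7 turned for any of the 8 under these settings. None of them read Satb1 from 1416008_at alone, the probe set that gave -0.58. The F test called between 4 and 7 of the 8, against 6 as reported, and Sox6 was lost most often. The same replicate number did not pair arrays (median correlation of deviations -0.07 for the same and 0.02 for different numbers). With the replicate block, 5 factors stayed lower at P40 and 1, in place of 3, was called at P15 against P10.

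The count of factors lower at P40 ranged from 3 to 5 when an array was left out, and was 3 without P40 replicate 1. Sox6 was not called with cells picked (-0.66, adjusted p = 0.079) or the beta-actin difference (-0.68) as a covariate, and ranged from -1.17 to -0.69 with an array left out. Dlx5 ranged from -1.55 to -0.92 with an array left out. Satb1 was called higher, making 1 factor in place of 0, with array weights (0.54, adjusted p = 0.019) and without P15 replicates 2 and 3 (0.42, adjusted p = 0.049). It ranged from 0.35 to 0.55 with an array left out, the count from 0 to 1. Satb1 was smaller with the beta-actin covariate (0.01, adjusted p = 0.97), the mean of probe sets (0.14, adjusted p = 0.63) and equal array medians (0.20, adjusted p = 0.35). Npas1 was called with the beta-actin covariate (-3.32, adjusted p = 0.038), was -0.81 with values under 5 set to 5 and -1.13 without P7 replicate 1, and had no value under a filter at 7. Sox6 was -1.81 by the probe set with the largest SD, and Dlx5 -1.86 with the beta-actin covariate. The cause of these shifts was not tested.

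Calls of single steps were less stable. At P10 against P7 the count of 1 became 2 with a filter at 7 or no trend in the prior variance, 0 in a fit of the 2 ages alone, and 1 to 2 with an array left out. Those added were Npas3, without P40 replicate 1, and Dlx1, without P10 replicate 3. At P15 against P10 the count of 3 became 1 with no filter or the beta-actin covariate, 0 with cells picked as a covariate, in the fit of 2 ages alone or without P15 replicates 2 and 3, and 1 to 3 with an array left out. Without P10 replicate 1 or 2, P15 replicate 2, P25 replicate 2 or P40 replicate 1 or 3, Npas3 alone was called there. With array weights or without P15 replicate 1 the count stayed 3, but Satb1 was called in place of Dlx5. Satb1 was then higher at P15 than at P10, by 0.62 and 0.66 (adjusted p = 0.013 and 0.024). Over all 9663 genes tested, that step had 1098 calls as reported. It had 150 with the beta-actin covariate, 33 with cells picked as a covariate and 53 in the fit of 2 ages alone. At P25 against P15 the count of 0 became 1, Dlx2, with the mean of probe sets or array weights. At P40 against P25 it became 1 with no filter and 2 with array weights. Without a filter, 9 member probe sets were called in place of 7. Of the 24 genes most like a factor by r, 4 were also named by Spearman's rho.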

Other observations

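The Dlx pairs lie beside non-coding transcripts whose levels were read after the values of the 8 factors were seen. Dlx1as (chr2:71530638-71537891, GRCm38.p6), which overlaps Dlx1 in position, averaged 12.42 ± 0.37 at P7 and 11.33 ± 0.41 at P10, then 10.83 ± 0.33 in P15 arrays, 11.84 ± 0.27 in P25 arrays and 11.12 ± 0.15 at P40 (log2, SD, n = 3 each). It was lower at P40 than at P7 by limma (log2 -1.30, SE 0.25, adjusted p = 0.00075), already lower at P10 than at P7 (-1.09, SE 0.25, adjusted p = 0.026) and higher at P25 than at P15 (1.01, SE 0.25, adjusted p = 0.034). Its lowest mean was thus at P15, as for Dlx5. P15 replicates 2 and 3, whose hybridization controls were at background, read 10.63 and 10.64, and replicate 1 read 11.21. The P40 arrays read 11.20, 10.95 and 11.22. These differences were not recomputed without P15 replicates 2 and 3, and the probe set was not checked for strand against Dlx1.

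Dlx6os1 (chr6:6820543-6871627), which overlaps Dlx6 in position, averaged 6.94 ± 0.73 at P40 and 5.54 ± 1.44 at P7 (log2, SD, n = 3 each). The difference of 1.40 did not pass by limma (SE 0.65, adjusted p = 0.091), while the F test over the 5 ages did (adjusted p = 0.046). Its highest mean was at P25, 7.33 ± 0.40, where the 3 arrays read 7.15, 7.79 and 7.05.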
